A study of Homo sapiens with 12 samples.

Results

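The 10 genes described here are markers of a stem-like state: PROM1, NES, SOX2, POU5F1, FUT4, MSI1, BMI1, CD44, KLF4 and MYC. They were taken as a set of names out of 25270 genes tested, and they were found on the arrays as the 13 probes whose RefSeq transcript maps to these symbols. PROM1, SOX2, FUT4, MSI1, CD44, KLF4 and MYC have 1 probe each (7 genes), while NES, POU5F1 and BMI1 have 2 each (3 genes). RNA came from Daoy, an established human medulloblastoma (MB) cell line, on 12 single-colour Agilent arrays in 4 groups of 3. The P1 ACM group was grown for 1 passage of 48 h in medium taken from cultured hippocampal astrocytes of newborn Sprague Dawley rats (ACM), and the P3 ACM group for 3 such passages. The P1 DMEM and P3 DMEM groups were handled alike in DMEM with serum and never met the astrocyte medium. The labels call the experiments independent but do not tell what cultures of the same number had in common, so p-values measure the spread between these cultures of 1 cell line. No genotype or drug differed between the groups, and the astrocytes that made the medium were rat while the cells measured were human.

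In development and in tumours these genes mark cells that renew themselves. PROM1 encodes CD133, a membrane protein of progenitor cells by which stem-like cells of brain tumours are sorted, and NES encodes Nestin, an intermediate filament of neural progenitors. SOX2, POU5F1 (which encodes Oct-4), KLF4 and MYC are the transcription factors that together can return a differentiated cell to pluripotency. FUT4 builds the sugar epitope CD15, MSI1 is an RNA-binding protein of neural stem cells, BMI1 is a polycomb protein that keeps differentiation genes and cell cycle inhibitors silent, and CD44 is the receptor for hyaluronan. The study measured CD133 and CD15 by flow cytometry after culture in ACM. Nestin, Oct-4A and Sox2 protein were measured in neurospheres grown without serum. The arrays read transcripts of cells grown in ACM or in DMEM with serum. The measure therefore differs from the study's, and for the neurosphere proteins so does the culture.

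The promoters of KLF4, BMI1 and FUT4 are shown because these genes, with POU5F1, varied together or in opposition from array to array. Of the 10 genes, 7 matched the RefSeq promoter table of GRCh38.p14 (NES, SOX2, PROM1, KLF4, BMI1, CD44 and FUT4), and POU5F1, MSI1 and MYC had no entry. Each run holds the 250 bases before the first listed start of the gene, 5′ to 3′ on the strand of the gene. Capitals mark CACGTG, the E-box read by MYC with MAX, GGGCGG, the GC box, and CCACCC, the box read by factors of the KLF family, each searched on both strands, and neighbouring GC boxes can overlap. The windows are chr9:107489770-107490019 on the minus strand for KLF4, chr10:22320849-22321098 on the plus strand for BMI1 and chr11:94543671-94543920 on the plus strand for FUT4.
KLF4: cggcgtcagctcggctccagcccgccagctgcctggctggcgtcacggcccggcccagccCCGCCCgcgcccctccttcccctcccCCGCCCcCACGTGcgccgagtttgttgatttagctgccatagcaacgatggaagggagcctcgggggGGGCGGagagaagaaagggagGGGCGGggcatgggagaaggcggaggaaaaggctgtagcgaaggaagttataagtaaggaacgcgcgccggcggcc
BMI1: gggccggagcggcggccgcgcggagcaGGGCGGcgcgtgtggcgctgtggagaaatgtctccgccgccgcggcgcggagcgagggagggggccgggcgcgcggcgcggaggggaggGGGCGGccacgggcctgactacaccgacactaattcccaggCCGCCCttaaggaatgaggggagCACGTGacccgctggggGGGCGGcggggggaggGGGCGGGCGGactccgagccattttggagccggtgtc
FUT4: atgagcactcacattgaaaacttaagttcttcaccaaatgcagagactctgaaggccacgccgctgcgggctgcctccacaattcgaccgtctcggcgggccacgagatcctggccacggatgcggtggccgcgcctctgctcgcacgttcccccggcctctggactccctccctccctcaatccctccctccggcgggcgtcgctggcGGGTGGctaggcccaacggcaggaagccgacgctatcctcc
Counted at the first listed start of each gene, the E-box letters stood in the windows of 2 of the 7 genes, KLF4 and BMI1, and of 6.49% of the 27305 genes in the table. The GC box stood in 5 of the 7 (NES, SOX2, KLF4, BMI1 and CD44), against 42.3% of genes, with 4 copies for KLF4 and 6 for BMI1. The CACCC box stood in 1 of the 7, FUT4, against 30.4% of genes, and in windows of PROM1 and BMI1 at other listed starts. ACAAAG, a core read by SOX factors, stood in the window of SOX2 alone among the 7, against 13.7% of genes, and the octamer ATGCAAAT read by POU factors stood in none (0 of 7), against 1.66%. These matches describe the letters and were not tested for binding.

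A level is given below as log2 of the background-corrected intensity minus the 75th percentile of the same array, so that 0 stands for that percentile, and a level cannot be set against that of another probe. The arrays fell into 3 sets by the scan date in the scanner output. These sets are called slides 1 to 3 here, and no slide label was read. The scanner software called 74.3% to 94.6% of probes well above background on each array, with the lowest shares on slide 2 (74.3% to 80.4%). All P1 ACM arrays and the first P3 ACM replicate were on slide 1, and all P3 DMEM arrays with the third P1 DMEM replicate were on slide 3. Slide 2 carried the other P3 ACM and P1 DMEM arrays, so ACM and DMEM of the same passage shared no slide. The authors' table of log2 values disagreed with the scanner output on which sample is which. Each of the 12 columns put the probes in the order found on the array of some other sample (Spearman correlation 0.99999 or higher across 30569 probes, against 0.953 to 0.992 with the array of the same label). Which set of labels is right is unknown, so the labels of the scanner output were followed and results under the labels of the table are given beside them. Of 20 genes of the cerebellar granule lineage and MB, 15 were well above background on all 12 arrays, among them ZIC2, BARHL1, EN2, OTX2 and GLI1. That holds for 72.8% of all genes on the arrays, so the count of detected markers does not by itself tell the labelled cell type from another.

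PROM1 was near background. Its probe was well above background on 5 of 12 arrays, namely 1 P1 ACM array, 1 P1 DMEM array and the 3 P3 DMEM arrays, and it entered the test only through P3 DMEM. The intensity was 8.32, 20.7 and 114.5 in the P1 ACM arrays, 11.5, 33.9 and 44.1 in P1 DMEM, 13.6, 11.7 and 34.8 in P3 ACM, and 20.0, 28.6 and 62.8 in P3 DMEM, in the order of replicates 1 to 3. The highest signal was in a P1 ACM array, and the lowest in another array of the same group. The lowest intensity that the software called well above background ranged from 9.97 to 42.7 between arrays, so signals of like size were called on some arrays and not on others. After scaling, the log2 level was -8.57, -6.67 and -4.30 in P1 ACM against -7.42, -5.98 and -5.08 in P1 DMEM, and the groups overlapped (log2 difference -0.35, 95% interval -2.52 to 1.82, limma adjusted p = 0.898). At P3 the levels were -7.59, -7.50 and -5.84 in ACM against -6.60, -5.96 and -4.81 in DMEM. The groups overlapped, no P3 ACM array (0 of 3) was well above background, and since PROM1 was tested only because P3 DMEM had it well above background, no test is read from these P3 values. By the labels of the authors' table, P3 DMEM replicates 2 and 3 here would be P3 ACM arrays, and the P1 ACM arrays would be P3 DMEM. The contrast in detection at P3 would then not hold. In bulk RNA fewer cells with the transcript and less of it per cell cannot be told apart.

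**Figure D1:**
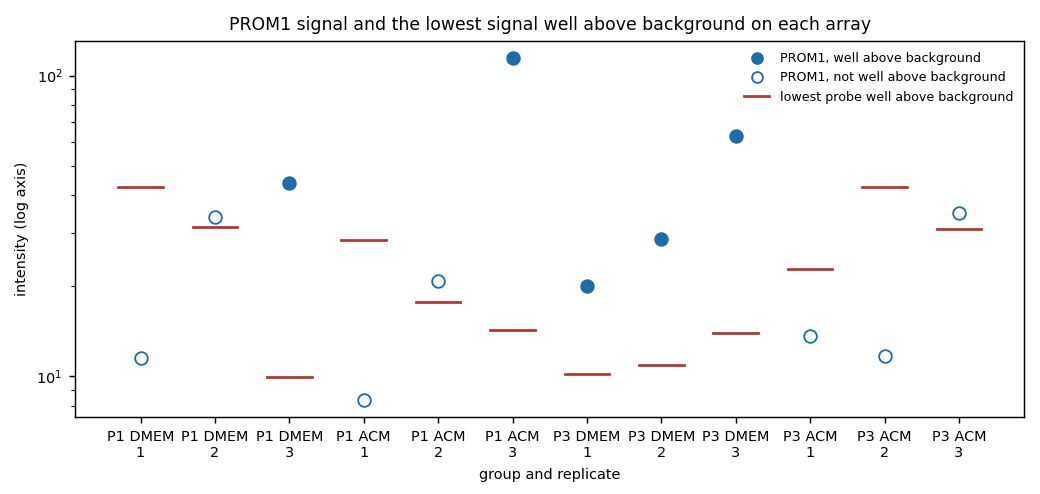
Intensity of the PROM1 probe on each of the 12 arrays (log axis), by group and replicate. Filled points are well above background and open points are not, and the red line is the lowest intensity of any probe called well above background on that array. By the labels of the scanner output, the 5 filled points include the 3 P3 DMEM arrays and none of the P3 ACM arrays. Under the labels of the authors' table this does not hold.

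Nestin transcript gave unlike readings from its 2 probes. By the brighter probe the NES level was -2.29, -2.22 and -2.05 in P1 ACM and -1.91, -2.50 and -2.36 in P1 DMEM. The same probe read -2.33, -2.66 and -1.78 in P3 ACM and -2.34, -2.05 and -2.25 in P3 DMEM. All 4 groups overlapped, and the ACM minus DMEM difference was 0.07 at P1 (95% interval -0.45 to 0.60) and -0.04 at P3 (-0.56 to 0.48), with limma adjusted p of 0.914 and 0.972. By the other probe, annotated with the same transcript, the level was -2.16, -1.74 and -2.73 in P1 ACM, -1.95, -1.85 and -1.54 in P1 DMEM, -1.73, -2.34 and -3.37 in P3 ACM and -2.55, -3.62 and -3.33 in P3 DMEM. That probe differed by -0.43 at P1 and by 0.68 at P3 between media, also with overlap, and across the 12 arrays the probes correlated with r = -0.46, a description over arrays that share scaling and slides. It was lower on the 3 P3 DMEM arrays than on any P1 DMEM array, and the share of all genes so separated is not given here. The difference of -1.39 passed both thresholds of the study given below but not adjustment (limma adjusted p = 0.572). The brighter probe moved by 0.05 in that comparison.

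SOX2, a transcription factor of pluripotent and neural progenitor cells, and POU5F1, one of pluripotent cells, had levels that overlapped between media. The SOX2 level was -2.61, -2.84 and -2.72 in P1 ACM and -2.32, -2.40 and -3.56 in P1 DMEM, where replicate 3 lay below all others. At P3 it was -2.87, -2.19 and -2.29 in ACM and -1.87, -1.51 and -2.78 in DMEM. ACM minus DMEM was 0.04 at P1 (95% interval -0.80 to 0.88, limma adjusted p = 0.975) and -0.40 at P3 (-1.24 to 0.44, adjusted p = 0.801), with overlap at both passages. For POU5F1 the brighter probe read -1.27, -1.21 and -0.73 in P1 ACM and -1.52, -1.30 and -0.21 in P1 DMEM. It read -1.22, -1.19 and -0.43 in P3 ACM and -1.16, 0.07 and -0.45 in P3 DMEM. These groups overlapped too, with differences of -0.06 at P1 (-0.93 to 0.82, adjusted p = 0.964) and -0.44 at P3 (-1.31 to 0.44, adjusted p = 0.792). The dimmer POU5F1 probe differed by 0.28 and -0.17. POU5F1 has near-identical pseudogene copies, and the probe sequences were not used here, so its values may include their RNA.

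KLF4 varied most between replicates among the genes well above background on all arrays. Its level was -3.51, -3.13 and -2.75 in P1 ACM and -3.45, -2.80 and -0.65 in P1 DMEM. At P3 it was -3.38, -3.52 and -2.81 in ACM and -3.05, -2.34 and -0.93 in DMEM. The third DMEM replicate was the highest array at each passage, while the ACM arrays lay close together, and the groups overlapped. The difference was -0.84 at P1 (95% interval -2.33 to 0.65, limma adjusted p = 0.549) and -1.13 at P3 (-2.62 to 0.36, adjusted p = 0.720). Without P1 DMEM replicate 3 the P1 difference was -0.01, and without P3 DMEM replicate 3 the P3 difference was -0.54. Without P1 DMEM replicate 3, which enters the P3 comparison only through the shared spread, the P3 difference was still -1.13 and passed the thresholds of the study. The pooled SD within groups was 0.95 on the log2 scale, larger than that of 96.5% of all genes tested and beside a median of 0.33.

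MYC, which drives growth and ribosome production, read 1.76, 1.51 and 1.30 in P1 ACM and 1.88, 1.52 and 2.58 in P1 DMEM. It read 1.94, 2.03 and 0.99 in P3 ACM and 1.44, 1.20 and 1.93 in P3 DMEM. The groups overlapped, and the difference was -0.47 at P1 (95% interval -1.22 to 0.28, limma adjusted p = 0.487) and 0.13 at P3 (-0.62 to 0.88, adjusted p = 0.930). BMI1 by its brighter probe read 1.88, 1.84 and 1.63 in P1 ACM, 2.12, 2.24 and 1.52 in P1 DMEM, 1.74, 2.01 and 1.23 in P3 ACM and 1.95, 1.19 and 1.64 in P3 DMEM. Its media differed by -0.18 at P1 (-0.77 to 0.42) and 0.06 at P3 (-0.53 to 0.66), and the dimmer probe, which followed it across arrays (r = 0.89), gave -0.14 and 0.19.

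The remaining markers, a surface receptor, a fucosyltransferase and an RNA-binding protein, had the narrowest intervals. CD44 read 3.95, 4.41 and 4.58 in P1 ACM, 4.48, 4.57 and 4.55 in P1 DMEM, 3.97, 4.63 and 4.51 in P3 ACM and 4.31, 4.67 and 4.71 in P3 DMEM. The first ACM replicate was the lowest array at both passages, and the difference was -0.22 at P1 (95% interval -0.72 to 0.27) and -0.19 at P3 (-0.68 to 0.30). FUT4 read -2.46, -2.50 and -2.32 in P1 ACM, -2.44, -2.27 and -2.06 in P1 DMEM, -2.61, -2.35 and -2.27 in P3 ACM and -2.42, -1.77 and -2.17 in P3 DMEM. With a pooled SD of 0.21, FUT4 was among the steadier genes, and it differed by -0.17 at P1 (-0.60 to 0.26) and -0.29 at P3 (-0.72 to 0.14). MSI1 read -1.84, -1.60 and -2.00 in P1 ACM, -2.07, -1.82 and -1.85 in P1 DMEM, -1.87, -1.71 and -2.27 in P3 ACM and -2.09, -2.66 and -2.13 in P3 DMEM. It differed by 0.10 at P1 (-0.37 to 0.57) and by 0.35 at P3 (-0.12 to 0.82, limma adjusted p = 0.730), and groups overlapped for all 3 genes.

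**Figure D2:**
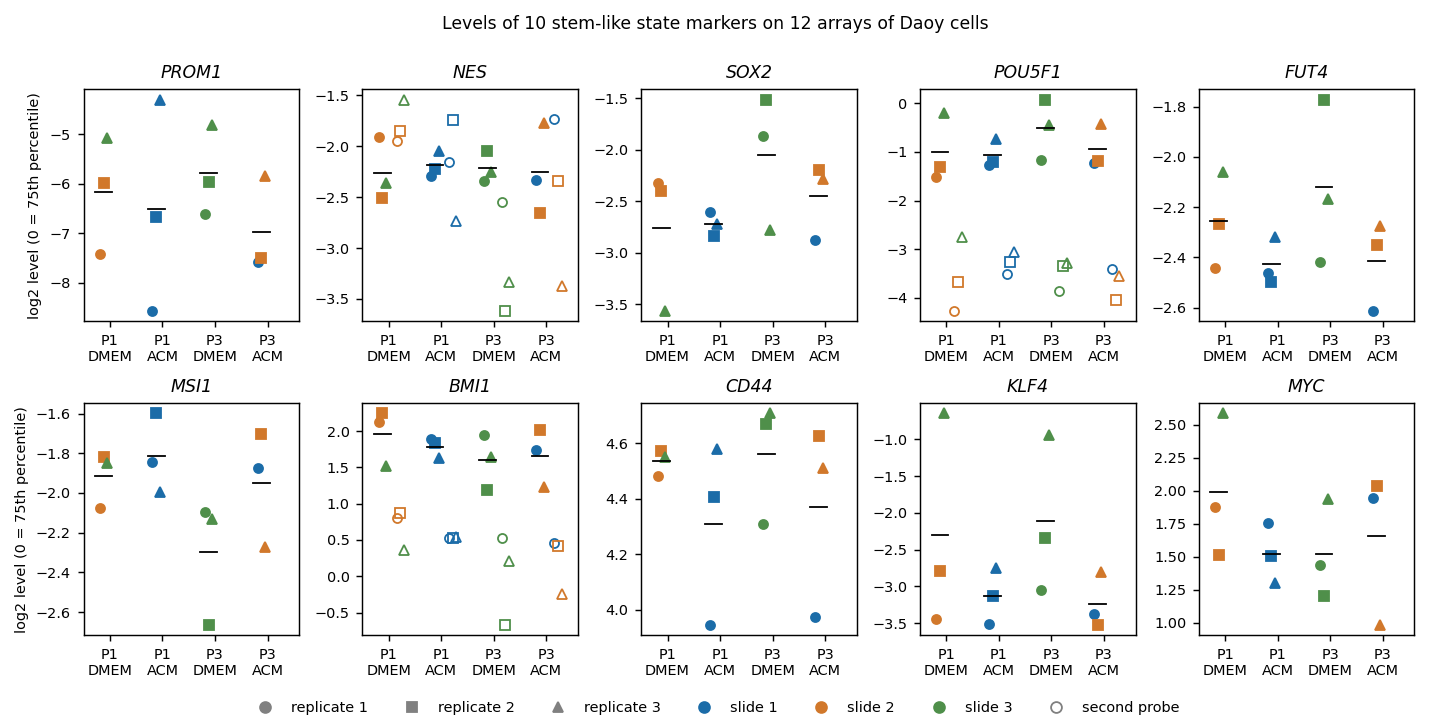
Log2 level of each marker gene by group, with 0 at the 75th percentile of an array. Filled points are arrays read by the brightest probe of the gene, open points are the other probe of NES, POU5F1 and BMI1, shapes are replicates, colours are slides and bars are means of the filled points. ACM and DMEM points overlap at both passages for each gene, and the third DMEM replicate of KLF4 stands at -0.65 at P1 and -0.93 at P3.

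Set against all genes, none of the markers (0 of 10) was called at P1, where a call takes more than a 2-fold change and an unadjusted p, from limma, of at most 0.05, the thresholds of the study. At P1 13.6% of genes tested were called, 13.5% higher and 0.095% lower in ACM. At P3 again 0 of 10 were called (KLF4 was when P1 DMEM replicate 3 was left out), against 1.73% of genes, 0.914% higher and 0.815% lower. At an unadjusted p of 0.05 with no limit on fold, 0 of 10 passed at either passage, and the smallest unadjusted p was 0.195 (MYC at P1) and 0.123 (KLF4 at P3). No gene of the whole array passed after adjustment in limma, with a smallest adjusted p of 0.0954 at P1 and 0.196 at P3. The t-test of the methods, run on these values, also called 0 of the 10 at P1 and at P3.

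Most calls at P1 were of dim probes, and most of the markers were not dim. When the genes were split by signal into 3 equal parts, the dimmest held PROM1, and of its genes 36.4% were called at P1 and the median log2 difference was 0.83. In the middle part, with NES, SOX2, POU5F1, FUT4, MSI1 and KLF4, 3.86% were called and the median was 0.14, and in the brightest part, with BMI1, CD44 and MYC, 0.546% and -0.08. The 10 markers had a median difference of -0.17 at P1, beside 0.15 over all genes, and of -0.24 at P3, beside 0.00345. Quantile normalization moved the median of all genes at P1 to 0.00117 and that of the markers to -0.20. The difference was negative for 7 of the 10 at each passage, but after quantile normalization NES (-0.15), SOX2 (-0.25) and MSI1 (-0.07) also turned negative at P1. PROM1 counts in the P3 median and among the 7 negative at P3, though its P3 value is not read as a test.

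How large a change the fit without slide would leave room for differed by gene. That fit takes no account of slide, which ACM and DMEM of the same passage did not share. For 7 of 10 markers at P1 both a doubling and a halving lay outside the 95% interval (NES, SOX2, POU5F1, FUT4, MSI1, BMI1 and CD44), and for 6 of 10 at P3 (NES, FUT4, MSI1, BMI1, CD44 and MYC), each read through the brightest probe. The other NES probe left room for a halving at P1 (-1.35 to 0.49) and for a doubling at P3 (-0.23 to 1.60), and the other POU5F1 probe for a doubling at P1 (-0.48 to 1.05). With slide as a block the listed genes ranged from -0.52 (BMI1) to 0.76 (POU5F1) at P1. At P3 they ranged from -0.64 (BMI1) to 0.87 (MYC), and intervals of that fit are not given here. The interval reached beyond a halving for PROM1, KLF4 and MYC at P1 and for SOX2, POU5F1 and KLF4 at P3. That of PROM1 at P1 also reached beyond a doubling (-2.52 to 1.82), and that of PROM1 at P3 is not read. No marker had ACM and DMEM arrays that did not overlap (0 of 10 at each passage), which was the case for 36.0% of all genes at P1 and 9.76% at P3.

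**Figure D3:**
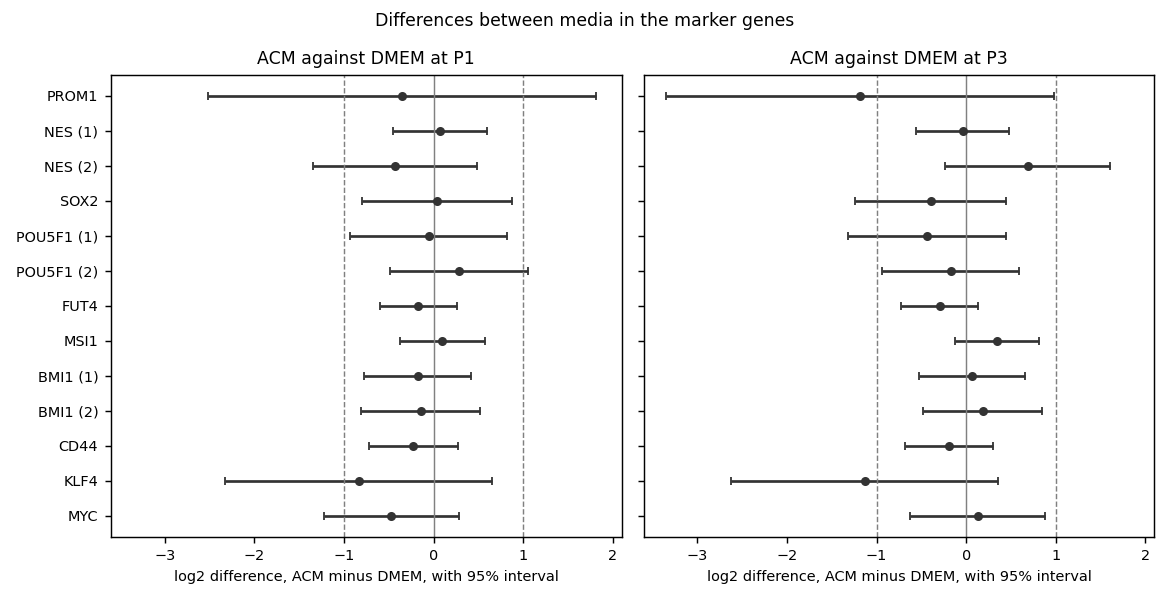
Log2 difference of ACM minus DMEM at P1 and at P3 for each probe of the marker genes, with the 95% interval of the limma fit without slide. A 1 or 2 after a name is the brighter or the other probe, and dashed lines mark a doubling and a halving. The intervals of PROM1 and KLF4 are the widest, and each interval crosses 0. The P3 interval of PROM1 is drawn but not read, since PROM1 was tested only through P3 DMEM.

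Passage without ACM was compared beside these differences. All P3 DMEM arrays were on slide 3 and P1 DMEM replicates 1 and 2 on slide 2, so passage here overlaps with slide too. From P1 to P3 in DMEM none of the markers (0 of 10) was called through its brightest probe, against 1.72% of genes, while the other NES probe was called at -1.39. Without P3 DMEM replicate 3, SOX2 was called too. With slide as a block 2 of 10 were called, SOX2 and MYC, against 1.93% of genes. In the fit without slide SOX2 was 0.71 higher at P3 (95% interval -0.13 to 1.55), POU5F1 0.50 higher, KLF4 0.19 higher, and MYC -0.47, MSI1 -0.38 and BMI1 -0.37. The 3 P3 DMEM arrays of MSI1 lay below the 3 P1 DMEM arrays (limma adjusted p = 0.574). Between media such separation was seen for 36.0% of genes at P1 and 9.76% at P3. The share between passages in DMEM is not given here. Whether the effect of ACM changed with passage was tested as the difference between the P3 and P1 differences, and none of the markers (0 of 10) had an unadjusted p of 0.05 or less, against 8.26% of genes. That difference was 0.60 for MYC (-0.46 to 1.67) and -0.29 for KLF4 (-2.40 to 1.81). These comparisons share arrays and are not independent.

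Several of the markers varied together between replicates, whatever the medium. In 4 of 4 groups the array with the highest POU5F1 had the lowest BMI1 and the highest FUT4, and in 3 of 4 it had the highest KLF4 and the highest PROM1. Over the 12 arrays POU5F1 correlated with BMI1 by r = -0.89, with FUT4 by 0.86 and with KLF4 by 0.73. The same correlations of the deviations from group means were -0.94, 0.88 and 0.77. The dimmer POU5F1 probe gave weaker values, r = -0.58 with the brighter BMI1 probe and -0.28 with the other, 0.37 with FUT4 and 0.67 with KLF4. The pairs named here are among the stronger of all pairs of marker probes. The share of all genes ordered in this way is not given here. Arrays share scaling, slides and perhaps culture days, so these values describe the arrays and carry no test.

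**Figure D4:**
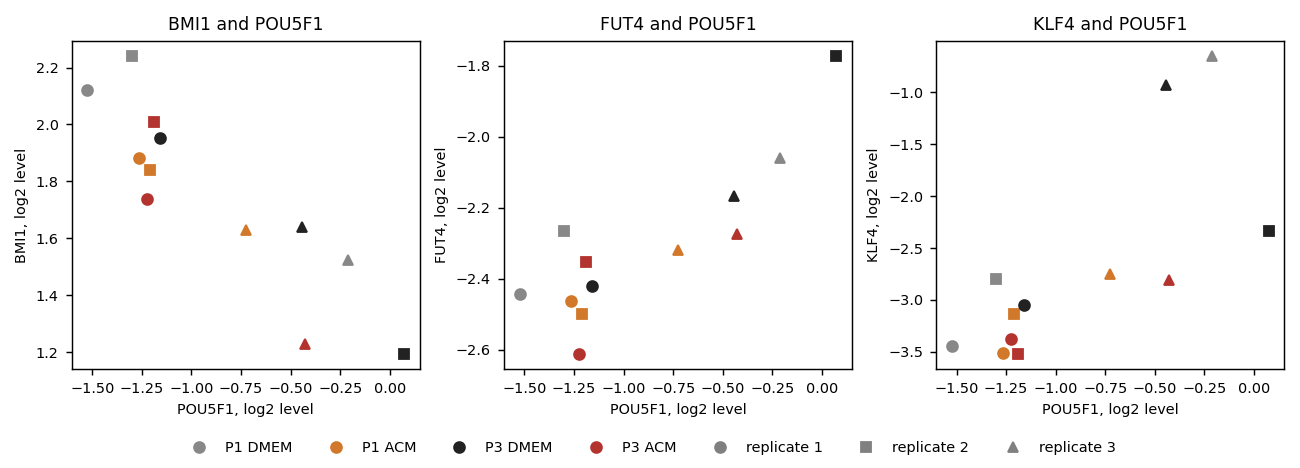
Log2 level of BMI1, FUT4 and KLF4 against that of POU5F1 on the 12 arrays, with colours for groups and shapes for replicates. BMI1 falls and FUT4 rises from left to right (r = -0.89 and 0.86), and each group spreads along the trend.

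For each marker well above background on all arrays, the genes with the most similar pattern across the 12 arrays were sought among 20174 others. They were KCNJ12 (r = 0.98) and a transcript without a symbol for KLF4, GOLGA6L9 (0.98) and another such transcript for POU5F1, CUL3 (0.96) for SOX2, and POFUT4 (0.95) and TMEM87A (0.95) for FUT4. MSI1 ran with ANKRD33 and CSNK1E (both 0.96), BMI1 with CYRIB and TRAM1 (both 0.96), CD44 with ZNRF1 (0.94) and GPRC5C (0.93), MYC with SOS2 (0.93) and NAMPT (0.92), and NES with PNMT (0.84) and LRP2 (0.82). These are the highest of many values over few arrays.

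The direction of several markers depended on slide and labels. With slide as a block, KLF4 differed by 0.20 at P1 and by 1.42 at P3, PROM1 by 1.11 and 0.75 and POU5F1 by 0.76 and 0.91, all opposite to the values above. In that fit SOX2 was called at P3, at -1.39. Slide 2 alone holds both media, though from different passages, and there P3 ACM minus P1 DMEM was -0.05 for KLF4, 0.12 for SOX2, 0.60 for POU5F1 and -0.56 for BMI1, with 2 arrays a group. Under the labels of the authors' table no marker was called at either passage, but KLF4 at P3 stood at 1.26 (unadjusted limma p = 0.110) and FUT4 at 0.62 (p = 0.0165). The part of slide in these results was not tested apart from these fits, since slide and medium overlap in the layout.

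**Figure D5:**
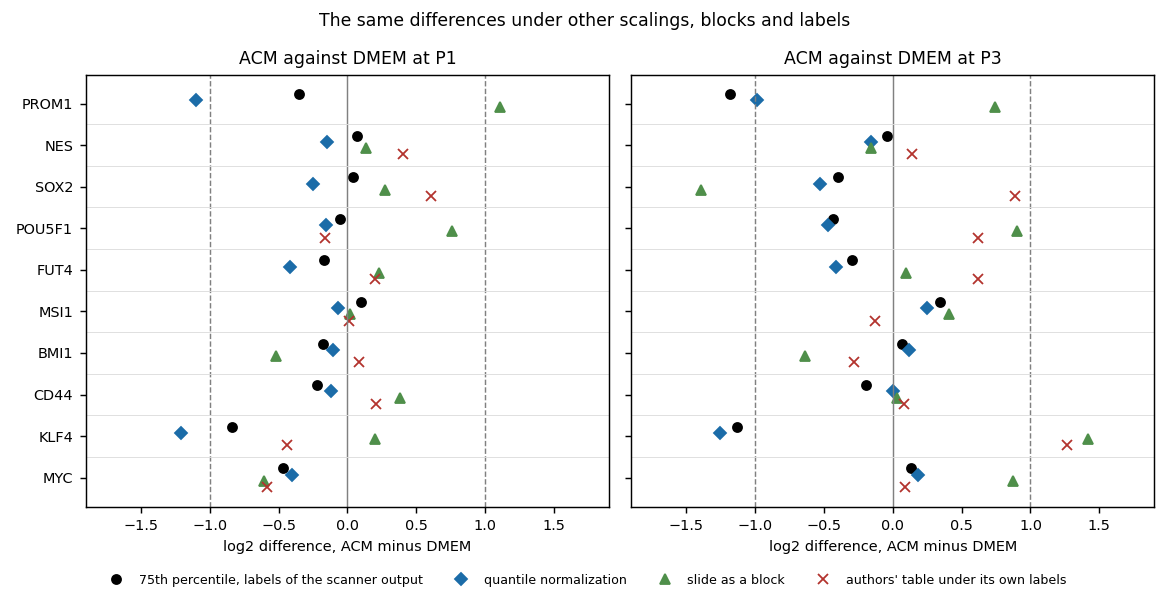
Log2 difference of ACM minus DMEM at P1 and P3 for each marker gene under 4 treatments of the data: the reported scaling, quantile normalization, slide as a block, and the authors' table under its own labels, which holds no PROM1. Dashed lines mark a doubling and a halving. KLF4 at P3 runs from -1.25 after quantile normalization to 1.42 with slide as a block.

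Genes that work with the markers are read against the same shares of all genes, 13.6% called at P1 and 1.73% at P3. Of 16 tested pluripotency genes, 2 were called higher in ACM at P1, GDF3 and NANOG, which is near the share of all genes, and 1 lower at P3, LIN28A, a blocker of let-7 maturation. GDF3, a TGF-beta family ligand, was on no P1 DMEM array (0 of 3) well above background and was at least 1.27-fold higher (means -5.94 and -7.48, limma adjusted p = 0.103). NANOG, a pluripotency factor, read -4.89 to -4.71 in P1 ACM against -5.96 to -5.83 in P1 DMEM (log2 difference 1.12, adjusted p = 0.103). LIN28A differed by -1.40 at P3 (adjusted p = 0.663). After quantile normalization GDF3 (0.22) and NANOG (0.30) were no longer called and LIN28A (-2.18) still was.

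Among 23 neural stem and radial glia genes none (0) was called at P1 and 1 was called higher at P3, the lineage factor OLIG2 (1.09, limma adjusted p = 0.695, with overlap between groups). Of 19 genes of the tumour stem surface and drug handling list, 1 was called at P1, the receptor tyrosine kinase KIT, on no P1 DMEM array (0 of 3) well above background and at least 1.42-fold higher in ACM (adjusted p = 0.103). None (0) of these 19 was called at P3. With slide as a block the P1 differences of KIT (-0.32), GDF3 (-0.32) and NANOG (-0.23) turned negative, and KIT stood at 0.76 after quantile normalization, no longer called. Around BMI1, 0 of 22 polycomb genes were called at either passage, with a median of -0.08 at P1 and -0.03 at P3. Around MYC, 0 of 30 network and target genes were called, with medians of -0.09 and -0.25, and around FUT4, 0 of 9 tested fucosyltransferases, with medians of 0.01 and 0.02. Of 17 hyaluronan genes and CD44 partners, 0 were called at P1 and 1 at P3, SRGN, the proteoglycan serglycin that CD44 can bind (2.49, from -2.76 to -0.16 in ACM against -4.64 to -3.30 in DMEM, adjusted p = 0.645). Under the labels of the authors' table SRGN stood at -0.39, and after quantile normalization 2 genes of this list were called lower at P1.

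Some markers of other cells were called at P1, where 13.6% of all genes were. Of 11 tested astrocyte genes, 4 were called higher (S100B, SPARCL1, GJB6 and ALDH1L1) and AQP4, the water channel, lower, and at P3 AQP4 alone, lower with a log2 difference of -1.94 (limma adjusted p = 0.647). Of 9 microglia genes, 2 were called higher at P1 (P2RY12 and CX3CR1) and 1 at P3 (CD68). After quantile normalization 3 astrocyte genes and 1 microglia gene were called higher at P1. With slide as a block the P1 differences of GJB6 (0.12), S100B (-0.18) and CX3CR1 (-0.18) shrank or turned, and under the labels of the authors' table they stood at -0.81, -0.31 and -0.47. The P3 differences of AQP4 and CD68 kept their sign with slide as a block (-3.36 and 0.88). Under the labels of the authors' table they turned (1.495 and -0.61). Of the 12 astrocyte genes, 7 were well above background on all arrays. The level summed over all 12, in multiples of the 75th percentile intensity, was 4.09 to 6.17 in P1 ACM and 4.44 to 5.96 in P1 DMEM. For microglia 6 of 9 were well above background on all arrays. The sum over all 9 was 17.0 to 24.6 in P1 ACM and 12.5 to 17.8 in P1 DMEM. At P3 that sum was 14.4 to 22.1 with ACM and 10.1 to 12.4 with DMEM. Such a sum adds levels of different probes, so its brightest genes weigh most. How often sums over other genes were so separated is not given here, nor are sums under the labels of the authors' table. ACM and DMEM at P3 shared no slide. No gene of either list (0) was below background on every array, and the part of these markers in the values of the stem-like genes was not tested.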

How the data were processed

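RNA of Daoy cells was labelled with Cy3 and hybridised to 12 Agilent arrays of the 4 x 44K format, grouped by the labels for medium and passage. The authors deposited the scanner output of Agilent Feature Extraction 11.0.1.1, with background-corrected intensity per spot and no normalization between arrays, and a table of log2 values of 30569 probes. Its scale and normalization beyond log2 were not stated, its column medians all lie near 9.02, and its sample labels conflict with the scanner output. In this work 1377 control spots were left out, spots of a probe averaged, and each array's log2 intensities set relative to its 75th percentile. A probe was kept if some group had it well above background throughout (31073 of 34127). A gene was counted through its brightest probe, and names came from the RefSeq accession of the probe, matched for 25767 probes (75.5%). Groups were compared with limma 3.58.1 in R 4.3.3 in 1 fit of all 12 arrays (8 residual degrees of freedom), two-sided, and p adjusted by Benjamini-Hochberg across kept probes. A call is more than 2-fold with an unadjusted p of 0.05 or less. Where a group had no array with the probe well above background, the fold is a bound, with the other group's mean set against, on each array, whichever is higher of the probe's own signal and the lowest signal so called. The script was tested on simulated data.

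All 10 genes and every probe of each are named, and of the other lists the genes called with the largest difference at each passage, up to 2. Some results that this rule selects are not reported here. The members and lists were chosen with earlier results of these data known. Other settings tried were quantile normalization, normexp (offset 50) on median intensity (mean intensity was not used here), filters on dim probes, only the arrays compared, the replicate block, the methods' t-test, slide as a fixed or random block, the mean of probes, each array left out and the table of the authors. At P1 same-numbered arrays deviated together (r = 0.49, 0.25 and 0.27 across probes), so the numbers may pair the P1 arrays. These values cannot settle it, with 3 arrays a group and P1 DMEM replicate 3 on another slide than replicates 1 and 2. The main fit uses no pairing, so the P1 intervals and p-values above are unpaired. At P3 the values were 0.40, -0.25 and 0.02, and they were not taken to pair. The 3 arrays per group limit the precision. Promoter sequences came from RefSeq, GRCh38.p14. Plots used matplotlib 3.10.9.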

Additional observations from a re-analysis of the deposited data

How the results depend on the processing

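No marker was called at P1 under any alternative run, with leave-one-out counts of 0 to 0. At P3 the count of markers called was 0 and became 2 with the replicate block (PROM1 and KLF4), 1 with slide as a block (SOX2) and 0 to 1 with each array left out (KLF4 without P1 DMEM replicate 3). From P1 to P3 in DMEM it was 0 and became 2 with slide as a block (SOX2 and MYC), 1 with slide as a random block (SOX2) and 0 to 1 with each array left out (SOX2 without P3 DMEM replicate 3). For the difference between passages it was 0 and became 2 with slide as a block (SOX2 and MYC), and stayed 0 to 0 with each array left out. With the replicate block the P3 difference of KLF4 (-1.13) was called, and so was PROM1, which no P3 ACM array (0 of 3) had well above background and whose P3 value is no measured fold. At P3 arrays of replicate 1 deviated together (r = 0.40) and those of replicates 2 and 3 did not (-0.25 and 0.02). At P1 the block changed no call. There the unadjusted limma p fell from 0.242 to 0.0704 for KLF4 and from 0.336 to 0.187 for CD44. It also fell for PROM1, SOX2, POU5F1, FUT4 and BMI1. It rose from 0.195 to 0.236 for MYC, and slightly for NES and MSI1. Of all genes, 1.92% were called at P3 with the replicate block and 2.68% with slide as a block. Without P1 DMEM replicate 3 the share called at P3 was 1.78%. Without P3 DMEM replicate 3 the share from P1 to P3 in DMEM was 1.82%. From P1 to P3 in DMEM 1.93% were called with slide as a block and 1.34% with slide as a random block, and for the difference between passages 3.84% with slide as a block.

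Directions turned as follows on the log2 scale. Quantile normalization gave -0.15 for NES, -0.25 for SOX2 and -0.070 for MSI1 at P1 and 0.0055 for CD44 at P3, and normexp before it -0.19, -0.27 and -0.10 for the first 3 genes. Slide as a block gave at P1 1.11 for PROM1, 0.76 for POU5F1, 0.23 for FUT4, 0.38 for CD44 and 0.20 for KLF4. At P3 it gave 0.91 for POU5F1, 0.099 for FUT4, -0.64 for BMI1, 0.030 for CD44 and 1.42 for KLF4. For PROM1 at P3 it gave 0.75, which is not read as a test. Slide as a random block gave 0.10 for POU5F1 at P1 and -0.17 for BMI1 at P3. The mean of the probes gave -0.18 for NES and 0.11 for POU5F1 at P1 and 0.32 for NES at P3. The authors' table, kept under its labels, gave 0.20 for FUT4, 0.084 for BMI1 and 0.21 for CD44 at P1, and at P3 0.14 for NES, 0.89 for SOX2, 0.62 for POU5F1, 0.62 for FUT4, -0.13 for MSI1, -0.28 for BMI1, 0.085 for CD44 and 1.26 for KLF4. With each array left out the P1 difference ranged from -1.46 to 0.68 for PROM1, -0.050 to 0.25 for NES, -0.36 to 0.26 for SOX2, -0.31 to 0.34 for POU5F1 and -0.0072 to 0.19 for MSI1, and the P3 difference from -0.28 to 0.16 for NES, -0.14 to 0.28 for BMI1, -0.32 to 0.0074 for CD44 and -0.060 to 0.46 for MYC. The causes were not tested. Dim signal limits PROM1, which the strict filter and the table leave out.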

Other observations

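Genes of neuronal and glial differentiation were also measured, of which 18 were tested. At P1, 5 were called higher in ACM (ELAVL3, S100B, RBFOX3, ELAVL4 and SYN1), beside 13.5% of all genes, and after quantile normalization 2. ELAVL3 (-0.47) and S100B (-0.18) turned negative with slide as a block. RBFOX3, which encodes the neuronal nuclear protein NeuN, read -4.17 to -3.51 in P1 ACM against -8.06 to -4.96 in P1 DMEM, and 1 of 3 DMEM arrays was well above background. The RNA-binding protein gene ELAVL3 was on no P1 DMEM array (0 of 3) well above background and was at least 1.23-fold higher in ACM (means -5.98 and -8.20, limma adjusted p = 0.106). At P3 the neurofilament genes NEFL and NEFM were called lower, with NEFL at 1.53 to 2.06 in ACM against 2.86 to 3.70 in DMEM (limma adjusted p = 0.618). Under the labels of the authors' table the differences of RBFOX3 at P1 and NEFL at P3 were -0.94 and 0.68, opposite in direction.

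Of 19 tested genes of the granule lineage and MB, 1 was called at P1, the roof plate factor LMX1A (log2 difference 1.14, limma adjusted p = 0.103, 0.69 after quantile normalization), and none (0) at P3.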
